A study of Mus musculus with 12 samples.

Results

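The genes of the IL-12 cytokine family encode 5 chains, which were all found among the 55335 genes listed per library: Il12a (p35), Il23a (p19), Il27 (p28), Il12b (p40) and Ebi3. They were selected by gene symbol alone. All 5 were among the 14357 genes with enough counts to be tested, Il23a through some groups only (below). The libraries came from bone marrow-derived dendritic cells (BMDCs) of adult C57BL/6 mice with the Rosa26-CreER transgene and intact Ctcf alleles, the wild-type (WT) controls of the study. Bone marrow was cultured with GM-CSF for 6 days with fresh medium every 2 days, and floating CD11c+ cells were selected. The untreated group is called WT. LPS, a cell wall component of Gram-negative bacteria, was given at 100 ng/ml for 3 h in WTL (titled WTLPS). JSH-23 is a small molecule that hinders nuclear entry of RelA, a subunit of NF-κB. Cells received 100 µM of it for 3 h in WT+JSH23 (titled WTJSH) and, ahead of LPS, in WTL+JSH23 (titled WTJSHLPS). Each group had 3 libraries. The study describes 4-OH-tamoxifen as an addition to cultures meant for Ctcf deletion, and its wording leaves some doubt whether WT cultures went without it. Whether a solvent was added where JSH-23 was not is not given in the sources used here, so that JSH-23 and its solvent cannot be told apart.

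Cytokines of this family are secreted pairs of a helical chain, which resembles IL-6, and a chain that resembles the soluble part of a cytokine receptor. The helical chains are p35, p19 and p28, and the receptor-like chains are p40 and EBI3. IL-12 is p35 with p40 and drives Th1 responses, IL-23 is p19 with p40 and sustains Th17 cells, IL-27 is p28 with EBI3 and both promotes and restrains T cell responses, and IL-35 is p35 with EBI3 and is known as a suppressive cytokine of regulatory lymphocytes. Dendritic cells are a main source of IL-12, IL-23 and IL-27 once microbial products engage their receptors. Because a p40 or EBI3 chain can pair with more than one partner, the balance of the transcripts within a cell bears on which cytokine can be assembled.

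Total expected counts (read pairs assigned to genes) ran from 24664724 to 34837847 per library. The cells were checked against marker lists. Of 8 dendritic cell markers, 8 were at 1 CPM or more in every group, with summed levels of 14100 to 14390 CPM in WT, 16550 to 17440 in WTL, 13060 to 13380 in WT+JSH23 and 14280 to 15440 in WTL+JSH23 (CPM are expected counts scaled to library size, with TMM factors between libraries). Of 8 macrophage markers, 8 were also at 1 CPM or more. Their summed level was between 2506 and 2656 CPM in WT, 1911 and 2031 in WTL, 1753 and 1805 in WT+JSH23, and 1411 and 1455 in WTL+JSH23. Both sums were lower with JSH-23 at either LPS state, without overlap. Neutrophil markers, of which 4 to 6 of 8 reached 1 CPM, summed to 43.65 to 49.4 CPM in WT, 61.9 to 62.9 in WTL, 41.5 to 45.9 in WT+JSH23 and 44.6 to 49.2 in WTL+JSH23, and so were lower with JSH-23 under LPS. The part of these differences in the results below was not tested. Lymphocyte markers summed to at most 1.17 CPM and mast cell and basophil markers to at most 0.697 CPM. In bulk RNA, fewer expressing cells and less RNA per cell cannot be told apart.

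The sequences before the start sites are shown for Il12a, Il12b and Ebi3, the genes of the family with a promoter window at hand. They are RefSeq windows on GRCm38.p6, all on the plus strand, and cover the 250 bases that end just before the start site. Capitals mark matches, on either strand, to the general form of an NF-κB site, which was searched as GGG, then any 5 bases, then CC. The Il12a window shown belongs to the second of its start sites and spans chr3:68691174-68691423, the Il12b window spans chr11:44399813-44400062, and the Ebi3 window spans chr17:55952373-55952622.
Il12a: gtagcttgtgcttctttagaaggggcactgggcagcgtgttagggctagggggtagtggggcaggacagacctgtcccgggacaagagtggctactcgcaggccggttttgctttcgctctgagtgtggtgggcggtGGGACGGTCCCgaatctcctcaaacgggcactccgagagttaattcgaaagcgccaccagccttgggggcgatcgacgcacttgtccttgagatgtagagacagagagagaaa
Il12b: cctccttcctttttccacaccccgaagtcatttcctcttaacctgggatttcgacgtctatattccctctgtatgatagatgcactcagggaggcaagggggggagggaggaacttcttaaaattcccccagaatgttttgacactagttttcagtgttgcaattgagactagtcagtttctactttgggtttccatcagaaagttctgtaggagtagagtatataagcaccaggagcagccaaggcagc
Ebi3: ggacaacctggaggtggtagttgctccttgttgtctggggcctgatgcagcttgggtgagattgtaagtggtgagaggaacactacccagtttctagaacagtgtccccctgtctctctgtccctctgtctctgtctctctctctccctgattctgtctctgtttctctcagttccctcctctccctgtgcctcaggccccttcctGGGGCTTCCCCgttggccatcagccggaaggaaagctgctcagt
In Il12a, a pair of overlapping matches lay from 113 to 103 bases before the start site. In Ebi3, a pair lay from 44 to 34 bases before it. Further matches lay after the start site, 1 in Il12a (GGGAAAGTCC) and 2 in Ebi3 (GGGGCCCTCC and GGCCTTTCCC). The Il12b window and the window of the other Il12a start site held no match, which says only that these letters are absent there. Windows with such a match made up 50.8% of the 32851 RefSeq windows of 300 bases, so a match is common. Other motifs were searched on both strands in the same way, and none was found in the 4 windows of these genes. They were the C/EBP motif TTNNGNAA (in 40.7% of all windows), the ETS motif GAGGAAGT (3.20%), the AP-1 motif written TGANTCA (7.81%) and the TATA box TATAAA (13.6%). An interferon-responsive motif, searched as a pair of GAAA with 2 bases between them (3.44% of all windows), was not found either. Il23a and Il27 were not among the windows, so their promoters were not searched.

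**Figure D1:**
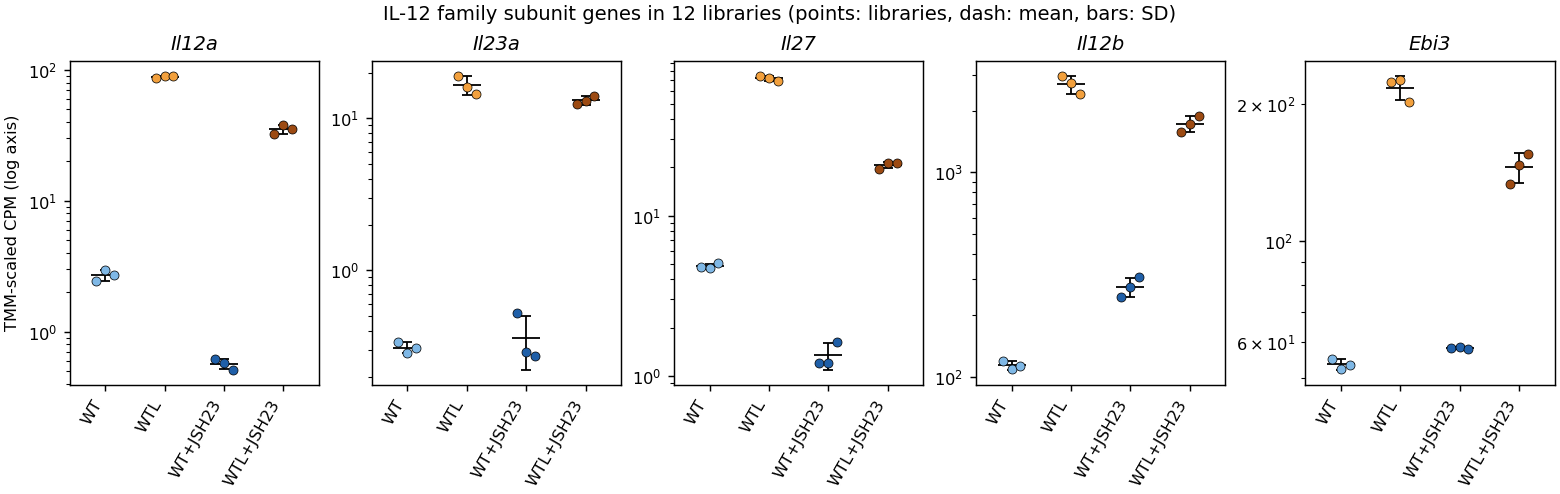
TMM-scaled CPM on a log axis for the 5 subunit genes in the 4 groups, with a scale of its own for each gene. Points are libraries, dashes are means and bars are SDs (n = 3). All 5 genes were higher with LPS, Il12a and Il27 were lower with JSH-23 at either LPS state, and Il12b was higher with JSH-23 without LPS (246 to 306 against 109 to 119.6 CPM).

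Among the helical chains, Il12a (ENSMUSG00000027776.12, chromosome 3, 68690644 to 68698547, plus strand, GRCm38) was measured at 2.45, 2.96 and 2.73 CPM in WT and at 87.1, 89.7 and 89.4 CPM in WTL. With JSH-23 it was measured at 0.615, 0.579 and 0.510 CPM without LPS and at 32.1, 37.7 and 35.4 CPM with LPS. The 4 groups did not overlap, and the order from lowest to highest was WT+JSH23, WT, WTL+JSH23 and WTL. The lowest group rested on 15 to 20 counts per library. Il27 (ENSMUSG00000044701.5, chromosome 7, 126589010 to 126594941, minus strand) followed the same order without overlap. Its levels were 4.80, 4.69 and 5.04 CPM in WT, 74.7, 71.96 and 69.4 CPM in WTL, 1.20, 1.19 and 1.63 CPM in WT+JSH23, and 19.6, 21.2 and 21.3 CPM in WTL+JSH23. Il23a (ENSMUSG00000025383.2, chromosome 10, 128296139 to 128298752, minus strand) was the least abundant chain. It was at 0.336, 0.285 and 0.310 CPM in WT and at 0.522, 0.289 and 0.272 CPM in WT+JSH23, which overlapped and rested on 8 to 17 counts per library. Il23a thus met the count filter for testing only through the libraries with LPS. With LPS it reached 19.1, 16.2 and 14.4 CPM in WTL and 12.4, 12.97 and 14.1 CPM in WTL+JSH23, and the highest library of the latter lay just under the lowest of the former.

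Among the receptor-like chains, Il12b (ENSMUSG00000004296.14, chromosome 11, 44400063 to 44414033, plus strand) was measured at 119.6, 109 and 112 CPM in WT and at 246, 273 and 306 CPM in WT+JSH23. With LPS it stood at 2945, 2729.8 and 2412 CPM in WTL and at 1581, 1719.6 and 1888 CPM in WTL+JSH23. The groups did not overlap, and the order was WT, WT+JSH23, WTL+JSH23 and WTL, so that WT and not WT+JSH23 was the lowest. Ebi3 (ENSMUSG00000003206.7, chromosome 17, 55952640 to 55957022, plus strand) had the narrowest range over the groups. It was at 55.2, 52.2 and 53.4 CPM in WT, 58.2, 58.6 and 57.99 CPM in WT+JSH23, 134, 147 and 155 CPM in WTL+JSH23, and 224, 227 and 202 CPM in WTL. The libraries of WT and WT+JSH23 did not overlap, but the difference between these neighbours did not pass the test.

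Levels of different genes were compared per transcript length, in TPM. In WT, Il12b (114 ± 6.37 TPM) and Ebi3 (95.99 ± 3.42 TPM) made up 50.5% and 42.6% of the summed TPM of the family (SD, n = 3). The helical chains were scarce, with 10.2 ± 0.435 TPM for Il27, 4.86 ± 0.395 TPM for Il12a and 0.433 ± 0.0493 TPM for Il23a. In WTL, Il12b reached 2142 ± 180.0 TPM, place 56 among 14357 genes, and 79.1% of the family. Ebi3 was at 308 ± 12.6 TPM (place 517), while Il12a and Il27 stood side by side at 119.6 ± 3.79 and 119 ± 3.11 TPM (places 1167 and 1170), a difference within the spread between libraries. Il23a was at 18.9 ± 2.53 TPM (place 4801). In WT+JSH23, Il12b alone made up 71.7% of the family (275 ± 28.7 TPM), with Il12a at 0.963 ± 0.155 TPM. In WTL+JSH23, Il12b remained at place 88 (1498 ± 112.7 TPM), Il12a was at 51.2 ± 3.94 TPM (place 2451) and Il27 at 37.3 ± 1.19 TPM (place 3159). Summed over p35, p19 and p28, the helical chains ran from 254 to 261 TPM in WTL and from 99.3 to 109.7 TPM in WTL+JSH23. The sum of the receptor-like chains ran from 2260 to 2642 TPM and from 1601 to 1852 TPM, in the same order.

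The first comparison, of WTL with WT, addressed the response to LPS. All 5 subunit genes rose by more than 2-fold, against a background of 7.36% of all genes tested that rose by this rule (adjusted p under 0.05 and more than 2-fold). The median log2 fold change was 4.57 for the 5 genes and -0.05 for all genes. In the edgeR fit Il23a rose most in fold, by 5.72 on the log2 scale (SE 0.174, adjusted p = 3.30e-17). Il12a followed at 5.03 (SE 0.0745, adjusted p = 3.31e-22) and Il12b at 4.57 (SE 0.0848, adjusted p = 1.00e-20). Il27 rose by 3.90 (SE 0.0668, adjusted p = 2.87e-21). Ebi3 rose by 2.02 (SE 0.0530, adjusted p = 2.85e-18), the smallest change in the family. The first place of Il23a depended on the fit, as its level in WT rested on 9 to 11 counts per library. With limma on log2(TPM + 1) Il23a rose by 3.79, less than Il12a (4.36) and Il12b (4.22). With limma on log2(TPM + 0.1) Il23a stayed first, at 5.15. The libraries of the groups did not overlap for any of the 5, against 69.9% of all genes. In absolute terms the order differed, as Il12b gained 2582 CPM, Ebi3 164 CPM, Il12a 86.0 CPM, Il27 67.2 CPM and Il23a 16.2 CPM.

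LPS was next examined in cells pre-treated with JSH-23, by comparing WTL+JSH23 with WT+JSH23. All 5 genes again rose by more than 2-fold, against 5.85% of all genes. On the log2 scale Il12a rose by 5.93 (SE 0.111, adjusted p = 1.99e-20), Il23a by 5.14 (SE 0.178, adjusted p = 6.05e-16) and Il27 by 3.94 (SE 0.0986, adjusted p = 2.30e-18). Il12b rose by 2.65 (SE 0.0774, adjusted p = 3.34e-17) and Ebi3 by 1.32 (SE 0.0532, adjusted p = 7.62e-15). The groups did not overlap for any of the 5, against 59.1% of all genes. The gains were 1455 CPM for Il12b, 87.1 CPM for Ebi3, 34.5 CPM for Il12a, 19.4 CPM for Il27 and 12.8 CPM for Il23a.

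**Figure D2:**
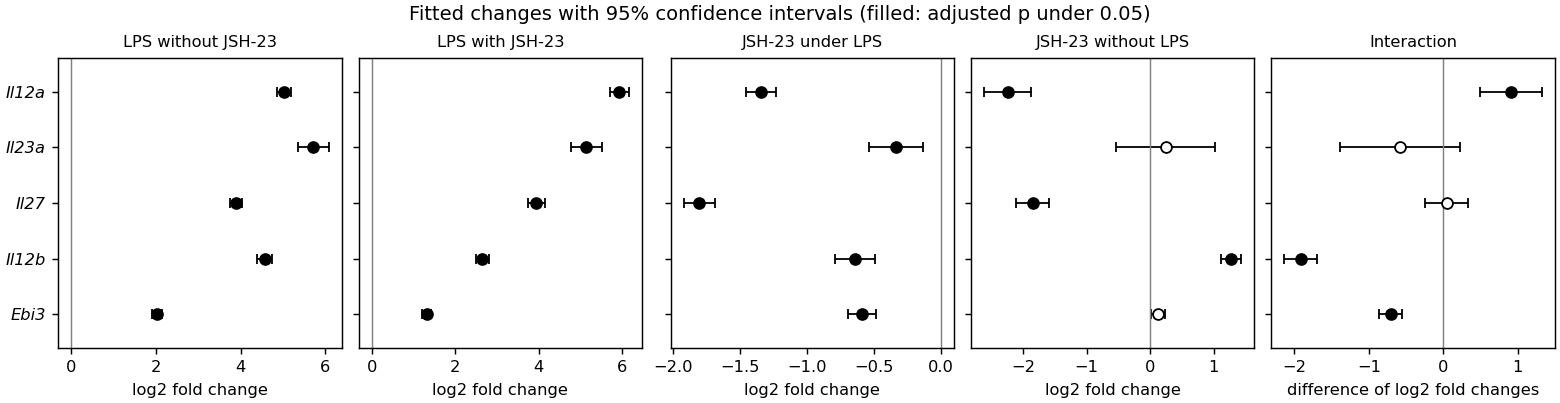
Fitted log2 fold changes of the 5 subunit genes in 4 comparisons and, in the last panel, the interaction (how far the response to LPS was larger or smaller after JSH-23). Points are edgeR estimates, bars are 95% confidence intervals and filled points passed an adjusted p of 0.05. Without LPS, Il12a and Il27 lay below 0 and Il12b above it (-2.24, -1.85 and 1.28), while under LPS all 5 lay below 0.

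To examine JSH-23 under LPS, WTL+JSH23 was compared with WTL. All 5 genes were lower, against 24.2% of all genes lower at an adjusted p under 0.05, and 2 of them fell by more than 2-fold, against 3.25%. The groups did not overlap in CPM for any of the 5, against 54.8%. Il27 was reduced most, to 28.7% of its level in WTL, with a log2 fold change of -1.80 (95% CI -1.92 to -1.69, adjusted p = 5.46e-16). Il12a was reduced to 39.5% (-1.34, 95% CI -1.45 to -1.23, adjusted p = 1.44e-14). Il12b kept 64.2% (-0.64, 95% CI -0.79 to -0.49, adjusted p = 1.94e-07) and Ebi3 66.8% (-0.59, 95% CI -0.69 to -0.48, adjusted p = 2.79e-09). Il23a kept 79.5% (-0.34, 95% CI -0.54 to -0.13, adjusted p = 0.00671). The call for Il23a was lost without WTL replicate 4 (adjusted p = 0.0830) and on the TPM scale, where the groups overlapped (16.8 to 21.7 TPM in WTL and 15.7 to 17.4 TPM in WTL+JSH23).

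Without LPS the members were affected in both directions by JSH-23, in the comparison of WT+JSH23 with WT. Il12a fell to 20.96% of its level in WT (log2 fold change -2.24, SE 0.180, adjusted p = 1.32e-09) and Il27 to 27.7% (-1.85, SE 0.125, adjusted p = 8.95e-11). Il12b rose 2.42-fold (1.28, SE 0.0770, adjusted p = 1.50e-11). Thus 2 members fell and 1 rose by more than 2-fold, against 2.94% and 2.43% of all genes. The libraries did not overlap for 4 of 5, against 51.5%. Ebi3 had a log2 fold change of 0.12 (95% CI 0.01 to 0.24, adjusted p = 0.0870), which passed under upper quartile scaling (adjusted p = 0.0420) and in a fit of WT and WT+JSH23 alone (adjusted p = 0.00916). Il23a had a log2 fold change of 0.25 with a 95% CI of -0.53 to 1.02 (adjusted p = 0.648), an interval left wide by its 8 to 17 counts per library. In the fit of WT and WT+JSH23 alone it did not meet the count filter.

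Whether the LPS response itself differed with JSH-23 was tested as the interaction. It passed for 3 of 5 members, against 18% of all genes (8.44% negative and 9.54% positive). It was negative for Il12b (-1.92, SE 0.106, adjusted p = 1.49e-10) and Ebi3 (-0.71, SE 0.0744, adjusted p = 1.54e-06). It was positive for Il12a (0.90, SE 0.200, adjusted p = 0.00318), a call that was lost with limma on log2(TPM + 1) (adjusted p = 0.0503). For Il27 it was 0.05 (95% CI -0.24 to 0.33, adjusted p = 0.882) and for Il23a -0.58 (95% CI -1.39 to 0.23, adjusted p = 0.340). The levels behind these values differ in kind. Il27 was at 27.7% of its control without LPS and at 28.7% with LPS, Il12a at 20.96% and 39.5%, and Il12b at 242% and 64.2%. The 4 comparisons share libraries in pairs, so these values are not independent of each other.

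Ratios of the chains that form one cytokine were taken within each library from TPM, which makes them independent of scaling between libraries. They are given as a description, with no test. For IL-12, Il12b exceeded Il12a by 20.6 to 27.1 times in WT and by 15.9 to 20.0 times in WTL. With JSH-23 the excess was 225 to 383 times without LPS and 26.8 to 31.95 times with LPS. The mean log2 ratios were 4.55 ± 0.198, 4.16 ± 0.166, 8.17 ± 0.388 and 4.87 ± 0.126 (SD, n = 3) in WT, WTL, WT+JSH23 and WTL+JSH23. WT+JSH23 thus stood apart from the other groups, at 12.2 times the ratio of WT. For IL-23, Il12b over Il23a had mean log2 ratios of 8.04 ± 0.0880, 6.83 ± 0.0750, 9.13 ± 0.647 and 6.51 ± 0.0382 in the same order, and p40 transcripts exceeded p19 transcripts by at least 88.4 times in every library. In this pair alone the ratio under LPS was lower with JSH-23 than without, by 0.32 on the log2 scale.

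For IL-27, Ebi3 over Il27 had mean log2 ratios of 3.24 ± 0.0586 in WT, 1.37 ± 0.0555 in WTL, 5.23 ± 0.266 in WT+JSH23 and 2.58 ± 0.0475 in WTL+JSH23. LPS thus brought the chains closest, to 2.49 to 2.69 Ebi3 transcripts per Il27 transcript in WTL, and with JSH-23 there were 5.84 to 6.22. For IL-35, Ebi3 over Il12a had mean log2 ratios of 4.31 ± 0.169, 1.36 ± 0.104, 6.77 ± 0.226 and 2.13 ± 0.0980 in the order used above. In all 4 ratios and in each of the 4 comparisons of groups, the libraries of the groups compared did not overlap. For single genes this held for 51.5% to 69.9% of all genes tested, by comparison. The ratios share chains and the comparisons share groups, so these are not separate results. Ratios with Il23a without LPS rested on 8 to 17 Il23a counts per library, and those with Il12a in WT+JSH23 on 15 to 20 Il12a counts. The smallest gap was that of Il12b over Il12a between WT and WTL, with a lowest log2 ratio of 4.36 and a highest of 4.32.

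**Figure D3:**
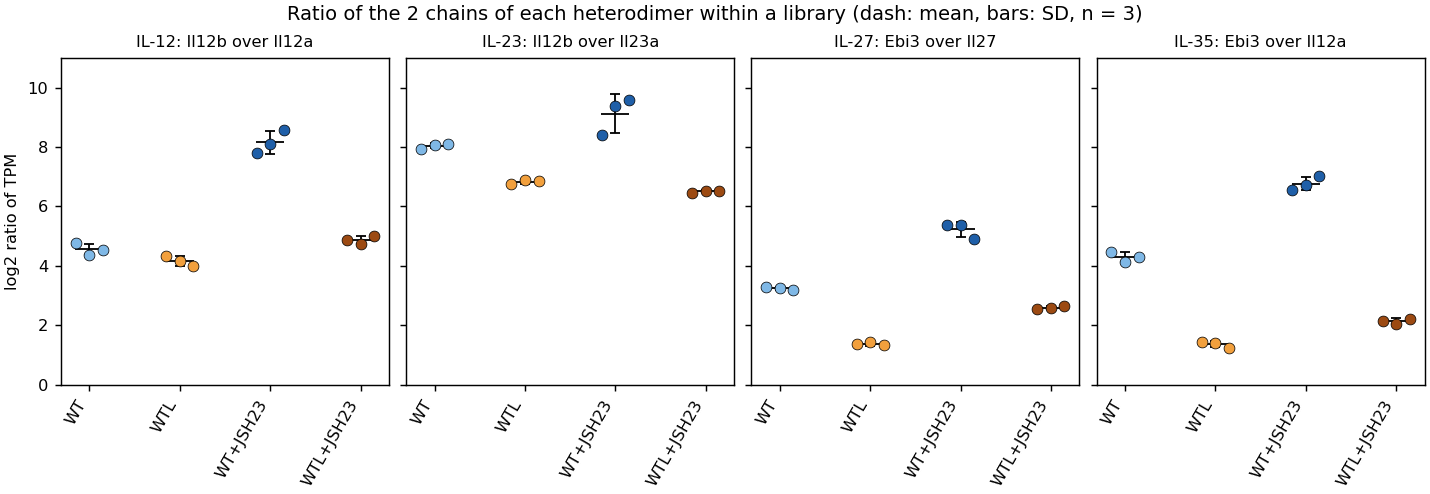
Log2 ratio of TPM between the receptor-like and the helical chain of IL-12, IL-23, IL-27 and IL-35 in each library. Points are libraries, dashes are means and bars are SDs (n = 3). WT+JSH23 had the highest ratio for all 4 cytokines, and WTL the lowest for all but IL-23, where WTL+JSH23 was lowest (6.51 against 6.83).

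The genes whose log2 CPM followed each member most closely over the 12 libraries were found by the root-mean-square (RMS) difference after centring each gene on its own mean, among protein-coding genes with a mean of at least 1 CPM. The measure is a description, and the libraries share their groups. For Ebi3 the closest were Abtb2 (RMS difference 0.0818), Rgs1, a regulator of G-protein signalling (0.0847), and Cdc42ep2 (0.108). For Il12b they were Cd70, a ligand of the TNF family (0.215), Plat, which encodes tissue plasminogen activator (0.328), and Dusp14 (0.351). The levels of Cd70 were 1.14, 26.0, 2.18 and 20.1 CPM in WT, WTL, WT+JSH23 and WTL+JSH23. For Il27 they were Lta, which encodes lymphotoxin-α (0.240), Socs3, an inhibitor of cytokine receptor signalling (0.354), and the chemokine gene Ccl4 (0.502). For Il12a they were Gfi1, a transcriptional repressor (0.328), Tnf (0.457) and Ccl4 (0.477). For Il23a they were Il6 (0.337), Ptgs2, an enzyme of prostaglandin synthesis (0.341), and Cxcl2 (0.391).

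The nearest tested genes on the chromosome were examined next to the members. Schip1, 64.2 kb from Il12a, rose with LPS by 2.64 on the log2 scale (adjusted p = 1.42e-17) and fell with JSH-23 under LPS by 0.97 (adjusted p = 8.56e-11). Its levels were 4.21, 26.2, 2.26 and 13.3 CPM in WT, WTL, WT+JSH23 and WTL+JSH23, the same order of groups as for Il12a. Among the other neighbours, the group means of Gm17641, Apobr, Ublcp1, Zfp119b and Gm16712 had this order too. No share of all genes is given for it. On the other side of Il12a, Gm17641, 169 kb away, rose with LPS by 0.82 (adjusted p = 6.78e-05). Nupr1, a stress-induced gene 28.3 kb from Il27, rose with LPS by 1.56 (adjusted p = 3.32e-13) and fell with JSH-23 under LPS by 0.37 (adjusted p = 0.000343, passing in 3 of 5 other scalings). Its change with JSH-23 without LPS was 0.05 (adjusted p = 0.731), where Il27 fell. Apobr, which overlaps the end of Il27, rose with LPS by 0.62 (adjusted p = 1.02e-10). It fell with JSH-23 under LPS by 0.51 (adjusted p = 5.35e-09) and without LPS by 0.42 (adjusted p = 2.30e-07). Beside Il23a, Stat2, a transducer of interferon signals 3.29 kb away, had an LPS change of -0.08 (adjusted p = 0.106) and fell with JSH-23 under LPS by 0.63 (adjusted p = 2.97e-11), and Pan2, 4.58 kb away, fell with LPS by 0.45 (adjusted p = 1.07e-06). Near Il12b, Ublcp1 (40.5 kb) rose with LPS by 0.52 (adjusted p = 2.73e-06, passing in 3 of 5 other scalings). Ttc1 (652 kb) had an LPS change of 0.38 (adjusted p = 0.000189) whose sign turned in 2 of 5 other scalings. Near Ebi3, Zfp119b (3.14 kb) rose with LPS by 1.21 (adjusted p = 2.20e-07) and fell with JSH-23 under LPS by 0.63 (adjusted p = 0.00078). In the latter comparison Gm17641 fell by 0.49 (adjusted p = 0.0113, passing in 3 of 5 other scalings). Ublcp1 fell by 0.37 (adjusted p = 0.000376), a sign that turned in 2 of 5. Pan2 rose by 0.17 (adjusted p = 0.0284, passing in 3 of 5) and Ttc1 by 0.26 (adjusted p = 0.0064). Of all genes, 31% rose and 34.7% fell with LPS, and 24.5% rose and 24.2% fell with JSH-23 under LPS.

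**Figure D4:**
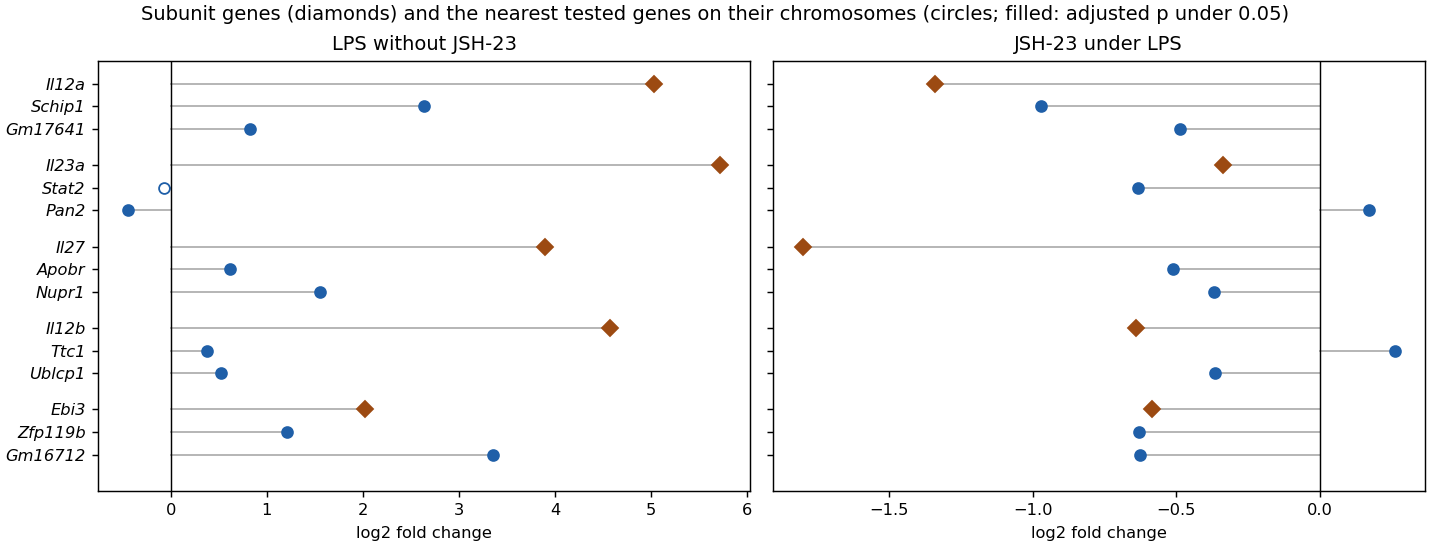
Log2 fold changes of the 5 subunit genes (diamonds) and of the nearest tested gene on either side (circles) for LPS without JSH-23 (left) and JSH-23 under LPS (right). Filled symbols passed an adjusted p of 0.05 with edgeR. Schip1 and Gm16712 had the largest LPS changes among the neighbours (2.64 and 3.35), and Stat2 and Pan2 beside Il23a did not rise.

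Gm16712, an antisense gene, overlaps Ebi3 and held between 8.11% and 27.8% of the Ebi3 count of a library. Ebi3 had a fractional expected count in 12 of 12 libraries and the other 4 members in none. The study's methods name a strand-marking library kit, but the strand setting of the counting is not given in the sources used here, so that reads of Ebi3 and Gm16712 may not be fully told apart. Il27 lies on the strand opposite to Apobr with overlapping 3′ ends, and Apobr held between 135% and 4190% of the Il27 count of a library. Gm16712 rose with LPS by 3.35 (adjusted p = 3.22e-18) and fell with JSH-23 under LPS by 0.63 (adjusted p = 1.82e-07). The sum of Ebi3 and Gm16712 was 59.2 ± 1.56 CPM in WT, 275 ± 19.8 in WTL, 63.1 ± 0.436 in WT+JSH23 and 182.5 ± 10.5 in WTL+JSH23 (SD, n = 3). The ratio of these means was 4.64 for LPS and 0.664 for JSH-23 under LPS, close to the fitted folds of 4.07 and 0.667 for Ebi3 alone.

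Genes around the family were followed with 4 lists written from general knowledge. Of 11 receptor chains and signal transducers, 5 were higher and 5 lower with LPS, with a median log2 fold change of -0.08 (31% and 34.7% of all genes tested). The rises of Jak2, Stat3 and Stat4 turned sign on the TPM scale. The genes with the smallest adjusted p were Il6st, the gp130 chain shared by the receptors of IL-27 and IL-6, which fell by 1.90 (adjusted p = 1.68e-18), Jak1, a kinase of these receptors, which rose by 0.43 (adjusted p = 2.07e-10), and Il12rb2, a chain of the IL-12 receptor, which fell by 0.43 (adjusted p = 2.09e-06). The interaction passed for 2 of the 11, against 18% of all genes, Il6st (0.89, adjusted p = 2.60e-08) and Il27ra, the other chain of the IL-27 receptor (0.83, adjusted p = 0.0269, passing in 4 of 5 other scalings). With JSH-23 under LPS 3 were higher and 7 lower, against 24.5% and 24.2% of all genes, where the fall of Jak1 turned sign on the TPM scale. Without LPS 2 were higher and 7 lower, against 18.8% and 22.1%. Under LPS these included falls of Jak2, a kinase of the IL-12 and IL-23 receptors (-0.41, adjusted p = 1.56e-07), and Il23r, a chain of the IL-23 receptor (-0.81, adjusted p = 4.21e-07). Without LPS they included falls of Il6st (-0.57, adjusted p = 1.13e-09) and Tyk2, a kinase that pairs with Jak2 (-0.44, adjusted p = 5.96e-09).

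Of 10 transcription factor genes known to act on the subunit genes, 6 were higher and 1 lower with LPS, against 31% and 34.7% of all genes, and 2 of them, Irf1 (1.35, adjusted p = 4.92e-18) and Nfkb1 (1.25, adjusted p = 6.55e-18), were up more than 2-fold. The rises of Spi1 and Rel turned sign on the TPM scale. Under LPS, JSH-23 went with lower levels of 7 and higher levels of 2, against 24.2% and 24.5% of all genes, none past 2-fold, and the falls of Irf5 and Rela turned sign on the TPM scale. The falls with the smallest adjusted p were those of Spi1, which encodes PU.1 (-0.71, adjusted p = 5.78e-13), Irf8 (-0.58, adjusted p = 1.73e-10) and Nfkb1 (-0.31, adjusted p = 9.95e-08). Without LPS 4 were lower and 2 higher, against 22.1% and 18.8%, led by falls of Irf1 (-0.64, adjusted p = 7.82e-12), Spi1 (-0.35, adjusted p = 4.20e-08) and Irf8 (-0.37, adjusted p = 2.68e-07). The interaction passed for 4 of the 10, against 18% of all genes. It was positive for Irf1 (0.35, adjusted p = 7.01e-05) and negative for Spi1 (-0.36, adjusted p = 3.63e-05), Irf8 (-0.21, adjusted p = 0.0154) and Nfkb1 (-0.16, adjusted p = 0.0267), and each of the negative ones passed in 3 of 5 other scalings.

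Of 7 negative regulators of the subunit genes or their transcripts, 4 rose and 2 fell with LPS, with a median of 1.61, against 31% and 34.7% of all genes. Tnfaip3, which encodes the NF-κB inhibitor A20, rose by 2.68 (adjusted p = 1.73e-21), Zc3h12a, an RNase that degrades cytokine transcripts, by 2.54 (adjusted p = 1.22e-20) and Socs1 by 1.61 (adjusted p = 1.40e-15). Il10, which encodes an inhibitor of Il12b transcription, was at 0.531 CPM in WT, 16.4 in WTL, 1.00 in WT+JSH23 and 22.8 in WTL+JSH23, and rose with LPS in both (adjusted p = 8.50e-14 and 7.83e-14). With JSH-23 under LPS 3 were lower, Socs1 (-0.99), Zc3h12a (-0.47) and Tnfaip3 (-0.40), and 3 were higher, Nfil3 (0.72), Atf3 (0.48) and Il10 (0.46), against 24.2% and 24.5% of all genes. The rise of Il10 (adjusted p = 0.00812) passed in 3 of 5 other scalings, and the highest WTL library (18.286 CPM) met the lowest WTL+JSH23 library (18.285 CPM). Of 4 relatives by structure 3 were tested. With JSH-23 without LPS, 2 rose as Il12b did and 1 fell, against 18.8% and 22.1% of all genes. Those that rose were Il6 (0.63, adjusted p = 2.02e-06) and Clcf1, a partner-dependent cytokine of the IL-6 group (1.03, adjusted p = 1.37e-10). Their interactions were also negative (-1.21 for each, adjusted p = 1.63e-07 and 3.06e-08), against 8.44% of all genes. The one that fell was Il6ra, which encodes the α chain of the IL-6 receptor (-0.75, adjusted p = 2.11e-09). Its interaction was 0.29 and did not pass (adjusted p = 0.171). With LPS, Il6ra fell by 3.29 (adjusted p = 1.63e-18).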

How the data were processed

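The RNA-seq data cover 12 mouse BMDC libraries, which were placed in 4 groups of 3 by sample title. The authors trimmed reads with Trim Galore, aligned them to mm10 with STAR 2.6.0c (version per the submitters' processing notes) and quantified genes with RSEM (annotation and strand setting not given in the sources used here). Expected counts, as deposited, give the read pairs assigned to each gene and are not normalized, and the deposited TPM values were scaled by the authors to effective transcript length and a common total. The deposited transcript lengths in bases are weighted over isoforms by RSEM. The labels name depletion of ribosomal RNA before a TruSeq RNA kit, whereas the methods name a stranded poly(A) version of that kit, and which selection applied was not settled. Symbols and coordinates were taken from GENCODE M21 (GRCm38), matching 55154 of 55335 identifiers.

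Expected counts were rounded, filtered with filterByExpr (14357 genes) and scaled by TMM, with factors from 0.859 to 1.12. The quasi-likelihood F-test of edgeR 4.0.16 (R 4.3.3) was fitted to all 12 libraries with 8 residual degrees of freedom, and p values were adjusted by Benjamini-Hochberg over all genes tested. SEs are the absolute log2 fold change divided by the square root of F. Adjusted p values come from this test where no other tool is given. The script was checked on simulated data. The methods name 3 biological replicates per condition. No culture or sequencing batch is given in the labels. Alternatives were DESeq2 1.42.0, limma 3.58.1 on TPM, other scalings and filters, the groups compared alone, a replicate block and leaving out each library. Named genes were the 5 members, for each the 3 genes of most similar pattern and the nearest tested gene on either side, and up to 3 genes per list and comparison with the smallest adjusted p. Il10, and Nfil3, Atf3 and Nfkb1 where they fall outside that rule, were named after their values were seen, as were the turns of sign of list genes. A gene of the lists that the rule would name is not reported here. The members and lists were chosen with earlier results of these data known. Promoter windows are from RefSeq (GRCm38.p6).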

Additional observations from a re-analysis of the deposited data

Results flagged for a closer look

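The test of the interaction set 3 members apart, since their response to LPS was not the same after JSH-23 as without it. Of all genes, 18% passed this test. The interaction was 0.90 for Il12a, -1.92 for Il12b and -0.71 for Ebi3, on the log2 scale. The call for Il12a was lost with limma on log2(TPM + 1) (adjusted p = 0.0503), and its WT+JSH23 libraries held 15 to 20 counts. For Il12a the fold was larger with JSH-23 while the gain was smaller (34.5 against 86.0 CPM). For Il12b and Ebi3 both the fold and the gain were smaller with JSH-23. The summed macrophage and dendritic cell markers were lower with JSH-23 at either LPS state and the neutrophil markers under LPS, and their part in these values was not tested.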

How the results depend on the processing

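The number of members that passed stayed within 1.5 times its value in all 5 comparisons under every alternative run. Of 300 member changes refitted with 1 library left out, 295 kept direction and side of the threshold. The exceptions were Il23a with JSH-23 under LPS (above), Ebi3 with JSH-23 without LPS, which passed without WTL+JSH23 replicate 3 (adjusted p = 0.0482), Il23a with JSH-23 without LPS, whose estimate ran from -0.14 (without WT+JSH23 replicate 1) to 0.42, and the interaction of Il27, which ran from -0.037 (without WT+JSH23 replicate 1) to 0.21 and was -0.023 without WT+JSH23 replicate 2. The Il27 interaction was also below 0 with limma on log2(TPM + 1), at -0.087, and did not pass in any of these fits. With limma on log2(TPM + 0.1) or log2(TPM + 1) Il23a with JSH-23 under LPS did not pass (adjusted p = 0.433 and 0.208). The TPM scale moved the median of all genes to -0.26 and -0.35 for LPS without JSH-23, with a pseudocount of 1 and 0.1, and no passing change of a member changed sign. Of the changes of other genes with values given above, those of Ttc1 with LPS and Ublcp1 with JSH-23 under LPS turned sign under another scaling. Calls lost under another scaling are given beside their values.

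With 0.1 TPM added to both chains, the log2 ratio of Il12b over Il23a in WT was 7.74. With expected counts per annotated length it was 6.91 in WTL and 6.59 in WTL+JSH23, and Ebi3 over Il27 was 2.63 in WTL+JSH23. Other ratios moved by less than 1 SD. With the replicate number as a block, which could be fitted for the LPS comparisons and the interaction, all 5, all 5 and 3 members passed, and over all genes 9539, 7960 and 2968 passed against 9437, 7828 and 2582. Libraries of the same number correlated at 0.0142 to 0.0614 in their deviations from group means, and those of different numbers at -0.0564 to 0.0355. WT+JSH23 replicate 1 and WTL+JSH23 replicate 2 correlated best with each other (0.0355), and every other library with its own number. The study's methods name no such block, and it stayed an alternative. Depth limits Il23a without LPS (8 to 17 counts).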

Other observations

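The transcript length that RSEM assigned to Il12a, weighted over its 6 annotated transcripts, was 1143 to 1160 bases in WT, 1197 to 1201 in WTL and 1195 to 1211 in WTL+JSH23. In WT+JSH23, at 15 to 20 counts per library, it ran from 1159 to 1280 bases. WT, at 79 to 104 counts per library, and WTL did not overlap, and no share of all genes is given for such a difference. Il23a, with 2 annotated transcripts, ran from 1360 to 1477 bases in WT and from 1365 to 1370 in WTL, which overlapped. Il12b, with 2 annotated transcripts, stayed between 1861.0 and 1861.4 bases in all libraries, and Il27 and Ebi3 have 1 annotated transcript each.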
